A study of Caenorhabditis elegans with 6 samples.

Results

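The hedgehog-related genes of *Caenorhabditis elegans* were taken as every deposited gene whose symbol starts with *wrt*, *grd* or *grl* (the warthog, groundhog and ground-like families), together with *hog-1* and *qua-1* (hedgehog-only and quahog). This gave 61 of the 47157 gene IDs, namely 10 *wrt*, 17 *grd* and 32 *grl* genes and the 2 single genes. Total RNA of young adults had been sequenced, with 3 wild-type libraries (strain N2) against 3 from *blmp-1(s71)* animals, described in the series as biological replicates. Both groups came from bleached embryos and were grown from the first larval stage on agar plates, and the labels do not say what the s71 change is. The gene *blmp-1* codes for a zinc finger transcription factor known for its part in developmental timing and in the epidermis.

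Hedgehog itself is a secreted signalling protein that cleaves itself with its own C-terminal portion, and the released N-terminal portion binds the receptor Patched. The worm has no true Hedgehog and no Smoothened, but it has a large set of secreted proteins that share either the self-cutting Hog part or a new N-terminal part named Wart, Ground or Ground-like. It also has many Patched-related membrane proteins. Many of these genes are used in the epidermis and other cuticle-lining cells, several are switched on and off with each larval molt, and *qua-1* is needed for molting.

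In the mutant, 6 of the 31 members tested rose and 1 fell. These were 19.4% and 3.23%, against 8.84% and 13.4% of all tested genes. The ground-like genes *grl-4*, *grl-10* and *grl-22*, the groundhog gene *grd-1*, the warthog gene *wrt-3* and *hog-1* were higher, with log2 fold changes between 0.96 and 1.64, and the warthog gene *wrt-8* was lower by 0.79. The largest differences in mean, above 2 on the log2 scale, belonged to *qua-1*, *grl-7*, *grl-15* and *grl-5*, which did not pass the test and had standard errors of 0.68 to 0.92. The most abundant members, *grd-5* and *grd-3*, did not pass either, with log2 fold changes of 0.44 and 0.08. These limma values have 1 added to each level before the log, which understates changes of low genes. With edgeR the 6 members called higher ran from 1.20 to 2.16 and *wrt-8* was at -1.70. There *qua-1*, *grl-7*, *grl-15* and *grl-5* ran from 2.22 to 2.66. With 1 library left out, the number of members called higher ran from 0 to 17, and 0 were called lower.

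Levels are given as CPM, a gene's reads scaled to a common total per library, after further scaling between libraries with TMM, and comparisons between genes as TPM, which also corrects for gene length. The libraries held 5255125 to 15218178 reads on genes, so that 3 reads were worth 0.181 to 0.702 CPM after scaling. Wild-type library 1 and mutant library 1 were the shallowest, and ribosomal RNA took up to 4.56% of their reads, against at most 1.28% in the other 4. *blmp-1* RNA was present in every library, at 8.62 to 22.1 CPM (limma adjusted p = 0.697). The adult cuticle collagen *col-19* was at 2388 to 2962 CPM in wild type and 1172 to 1748 in the mutant, and the yolk protein gene *vit-2* was at 12510 CPM or more in every library, so that both markers of the adult were present throughout. Their levels were not equal, and the 6 yolk genes had a median log2 fold change of -1.64. Of these limma called 0, with 3 lower at an unadjusted p under 0.05, and DESeq2 called 3 lower. The other adult cuticle collagens checked did not pass, with *bli-1* at 5.15, 12.1 and 27.1 CPM in wild type and 60.0, 33.5 and 13.6 in the mutant, and *bli-2* at 2.81, 20.8 and 24.0 against 60.2, 58.7 and 14.6. With whole animals, fewer cells that use a gene and less of its RNA per cell cannot be told apart.

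Of the 61 members, 31 reached 1 CPM in 3 or more libraries and were tested. These were 9 *wrt*, 9 *grd* and 11 *grl* genes, *hog-1* and *qua-1*. The other 30, among them 21 *grl* genes, held between 0 and 65 reads over all 6 libraries together, with a median of 11. By the WBcel235 gene models (the build behind the deposited values is not known here), 59 members have a coding sequence, and *grd-17* and *grl-32* are pseudogenes. The members lie on chromosomes V (30), IV (12), X (10), III (4), II (3) and I (2). The annotated proteins range from 102 codons (*grd-5* and *grd-10*) to 1169 (*qua-1*). The median is 482.5 codons for *wrt*, 329 for *grd* and 212 for *grl* genes, and the members of 900 codons or more are *qua-1*, *grd-1*, *grd-11* and *grd-2*.

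Per length, 2 groundhog genes made up most of the family's RNA in wild type. There *grd-5* and *grd-3* stood at a mean of 251 and 211 TPM and together made 50.4% to 58.4% of the summed TPM of all 61 members. The next levels were 67.0 TPM for *grl-16*, 63.3 for *grl-4*, 60.7 for *grd-10* and 44.0 for *grd-14*. The summed TPM of the family was 642, 940 and 997 in wild-type libraries 1, 2 and 3, and 1955, 1919 and 1083 in mutant libraries 1, 2 and 3. All 3 mutant sums of TPM were above the highest wild-type sum, with mutant library 3 just above it. The *grl* genes made 170, 172 and 249 TPM of the wild-type sums and 847, 752 and 269 of the mutant sums, while the *grd* genes made 436, 718 and 686 in wild type and 873, 1027 and 754 in the mutant. TPM carries no scaling between libraries, so these sums are also moved by the few very abundant genes of each library. In scaled CPM the family summed to 427, 622 and 759 in wild type and 1390, 1141 and 602 in the mutant. On that scale mutant library 3 lay inside the wild-type range.

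**Figure D1:**
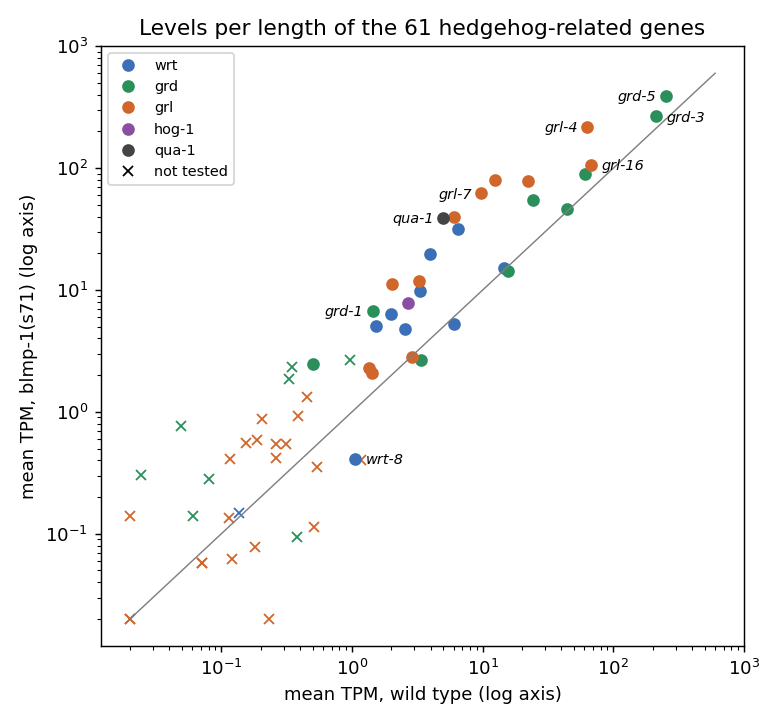
Mean TPM of each of the 61 members in wild type (x axis, log scale) and in blmp-1(s71) (y axis, log scale), coloured by family, with crosses for the 30 members not tested and the grey line at equal levels. Means of 3 libraries are shown without their spread and means under 0.02 are drawn at 0.02; *grd-5* and *grd-3* are the highest in both groups, and *grl-4* goes from 63.3 to 219 TPM.

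limma with Benjamini-Hochberg adjustment over all 13756 tested genes called 6 members higher and 1 lower at an adjusted p under 0.05, and 24 were not called. edgeR called the same 7. Of these 7 calls 6 had a limma adjusted p between 0.03 and 0.05, as had 2907 of the 3061 calls over all genes. The background was 8.84% of all tested genes called higher and 13.4% called lower, against 19.4% and 3.23% of the 31 members (with edgeR, 1167 and 1656 of all tested genes, 8.48% being higher). The median log2 fold change was 0.85 over the 31 members and 0.07 over all tested genes. A log2 fold change of 1 or more was found for 13 of the 31, or 41.9%, against 6.19% of all tested genes, and of -1 or less for 0 of the 31, against 4.15%. The value was above 0 for 24 of the 31, against 53.1% of all tested genes. The groups did not overlap for 8 members with the mutant higher and for 2 with it lower, where the background was 22.6% and 26.0%. Scaling by library size gave 10 members called higher and 0 lower, upper-quartile scaling 9 and 0, and the TPM 10 and 0 (each with 1 lower at an unadjusted p under 0.05), while the median of all genes moved to 0.35, 0.18 and 0.30. Over all tested genes these scalings called 16.6%, 14.8% and 17.5% higher and 1.02%, 9.54% and 2.54% lower.

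**Figure D2:**
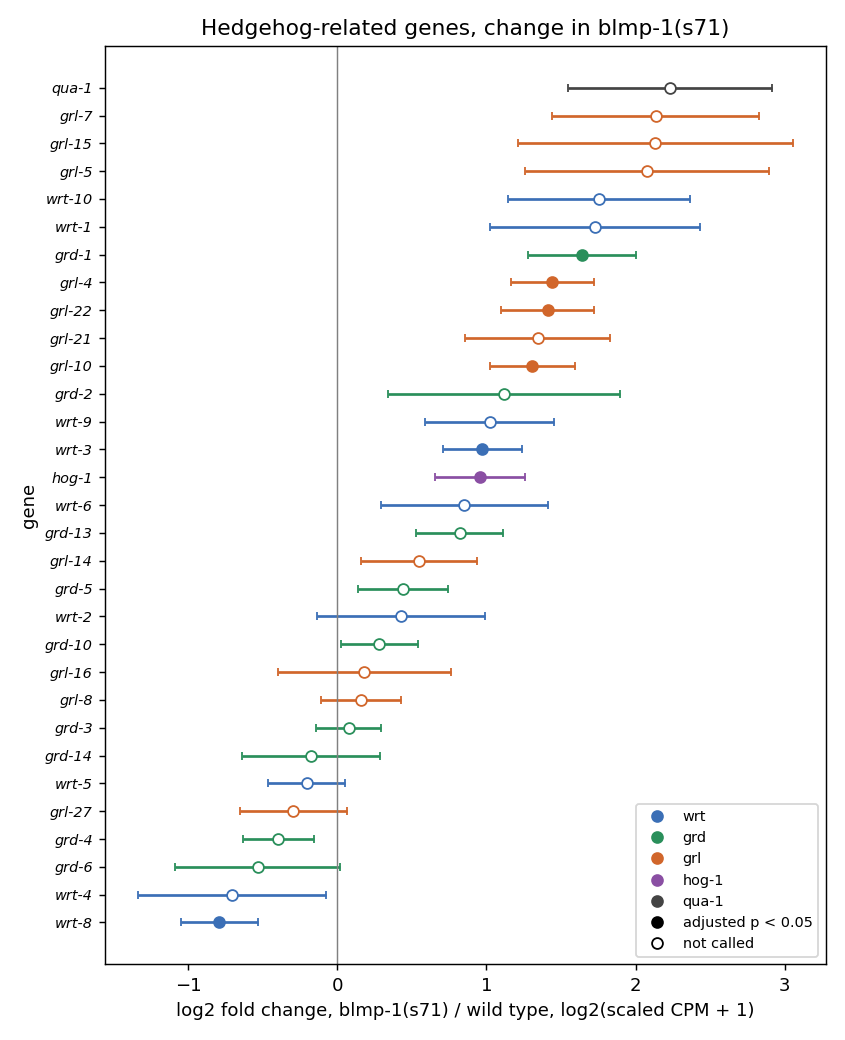
Log2 fold change of blmp-1(s71) over wild type on the log2(scaled CPM + 1) scale (x axis) for the 31 tested members (y axis), with bars of 1 standard error from limma, filled where the adjusted p was under 0.05. The members called higher have shorter bars than *qua-1*, *grl-7*, *grl-15* and *grl-5* above them.

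Among the ground-like genes, secreted proteins named for their Ground-like part, 3 of 11 tested members rose (27.3%) and 0 fell. Over all tested genes 8.84% rose and 13.4% fell. Of the 11, 10 had positive values, and the median was 1.34. *grl-4* (WBGene00001713, chromosome IV, 7309838 to 7310760) was at 46.6, 35.9 and 50.0 CPM in wild-type libraries 1, 2 and 3 and at 146, 155 and 77.1 CPM in mutant libraries 1, 2 and 3. All mutant libraries lay above all wild-type libraries, and *grl-4* rose by 1.44 (SE 0.28, limma adjusted p = 0.0258), the smallest adjusted p of the family. *grl-10* (WBGene00001719, chromosome V, 7774545 to 7775759) was at 2.11, 3.27 and 3.57 CPM in wild type and 8.15, 11.7 and 6.93 CPM in the mutant, without overlap, and rose by 1.31 (SE 0.28, limma adjusted p = 0.0337). It overlaps the ribosomal protein gene *rpl-39*, which had a log2 fold change of -0.17 (SE 0.25). *grl-22* (WBGene00001731, chromosome III, 5413137 to 5414011) was near the lower limit in wild type, with 4, 10 and 17 reads, and had 46, 80 and 25 reads in the mutant libraries. In scaled CPM that was 0.936, 0.761 and 1.26 against 6.47, 4.82 and 2.34, a rise of 1.41 (SE 0.31, limma adjusted p = 0.0337). *grl-22* overlaps *W03A5.1*, which rose by 1.36 (SE 0.29, limma adjusted p = 0.0337), and how the authors split reads between the 2 genes is not given, so that its value is uncertain.

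Other ground-like genes showed larger mean differences with wide spread. *grl-7*, whose protein has been placed in the apical matrix of the cuticle, was at 4.68, 8.75 and 16.7 CPM in wild type and 80.8, 56.2 and 16.8 CPM in the mutant. Mutant library 3 was at 16.77 CPM and wild-type library 3 at 16.74, and the log2 fold change was 2.13 (SE 0.69, limma adjusted p = 0.0693). *grl-5* was at 3.51, 11.3 and 13.7 CPM in wild type and 79.4, 54.9 and 12.6 in the mutant. *grl-15* was at 0.234, 4.41 and 6.03 CPM in wild type, the first being 1 read, and 28.4, 21.9 and 4.87 in the mutant. In both genes mutant libraries 1 and 2 were above all wild-type libraries and mutant library 3 was inside the wild-type range, with log2 fold changes of 2.08 (SE 0.82, limma adjusted p = 0.109) and 2.13 (SE 0.92, limma adjusted p = 0.133). *grl-21*, which has been linked to the control of fat stores, had the same form, with 8.66, 10.6 and 19.3 CPM against 40.3, 54.5 and 15.2 (1.34, SE 0.49, limma adjusted p = 0.0765). *grl-16*, the ground-like gene with the highest wild-type level per length, was at 71.8, 80.0 and 138 CPM in wild type and 202, 128 and 44.3 in the mutant, so that mutant library 1 was the highest and mutant library 3 the lowest of all 6 (0.18, SE 0.58, limma adjusted p = 0.823). *grl-14* (0.55), *grl-8* (0.16) and *grl-27* (-0.30) were each under 4 CPM in every library, and *grl-14* overlaps the neuronal gene *sbt-1*, which rose by 0.79 (limma adjusted p = 0.0346).

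Among the groundhog genes, 1 of 9 tested members rose (11.1%) and 0 fell, with a median of 0.28. Over all tested genes 8.84% rose and 13.4% fell, so the share that rose was near the background. *grd-1* (WBGene00001690, chromosome X, 11109440 to 11115887), one of the long members with 1137 codons, was at 3.74, 4.49 and 6.10 CPM in wild type and 28.3, 17.9 and 9.09 CPM in the mutant. The groups did not overlap, and *grd-1* rose by 1.64 (SE 0.36, limma adjusted p = 0.0337). *grd-2*, also long, was at 0.234, 1.67 and 2.23 CPM against 11.2, 4.10 and 0.749, with mutant library 3 inside the wild-type range (1.12, SE 0.78, limma adjusted p = 0.298). The abundant *grd-5* was at 62.0, 136 and 140 CPM in wild type and 131, 166 and 137 in the mutant. Its groups overlapped, with wild-type library 1 apart from the other 5, and the log2 fold change was 0.44 (SE 0.30, limma adjusted p = 0.263). *grd-3* had the smallest log2 fold change of the family in size, at 101, 142 and 129 CPM in wild type and 121, 143 and 125 in the mutant (0.08, SE 0.22, limma adjusted p = 0.799).

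*grd-3* lies in a row of 3 groundhog genes on the plus strand of chromosome IV, 148 bases after *grd-13* and 602 bases before *grd-10*. *grd-13* was at 8.66, 12.7 and 16.7 CPM in wild type and 27.7, 25.5 and 16.02 in the mutant (0.82, SE 0.29, limma adjusted p = 0.0565). *grd-10* was at 20.6, 32.6 and 34.4 CPM in wild type and 38.4, 40.3 and 27.3 in the mutant (0.28, SE 0.26, limma adjusted p = 0.400). In both neighbours mutant library 3 lay inside the wild-type range and the other 2 mutant libraries above it, which was not so for *grd-3*. The neighbours *grd-14* and *grd-4* on chromosome X, 185 bases apart, had log2 fold changes of -0.18 (SE 0.46) and -0.40 (SE 0.24). *grd-4* was at 1.87 to 2.46 CPM in wild type and 1.27 to 1.51 in the mutant, without overlap, but did not pass (limma adjusted p = 0.205). *grd-6* was at 16.4, 18.9 and 37.05 CPM against 28.8, 18.8 and 6.37 (-0.53, SE 0.55, limma adjusted p = 0.470), and mutant library 3 was again the lowest.

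Among the warthog genes, 1 of 9 tested members rose and 1 fell, or 11.1% each, with a median of 0.85. Over all tested genes 8.84% rose and 13.4% fell, so both shares were near the background. *wrt-3* (WBGene00006949, chromosome IV, 9473633 to 9477456) was at 1.17, 1.83 and 1.19 CPM in wild type and 2.67, 4.22 and 4.31 in the mutant, and was the 1 tested member with its highest level in mutant library 3. It rose by 0.97 (SE 0.27, limma adjusted p = 0.0346), from 5, 24 and 16 reads to 19, 70 and 46. *wrt-8* (WBGene00006954, chromosome V, 15342054 to 15344581) was at 1.40, 2.21 and 1.26 CPM in wild type and 0.843, 0.542 and 0.187 in the mutant. These were 6, 29 and 17 reads against 6, 9 and 2, and *wrt-8* fell by 0.79 (SE 0.26, limma adjusted p = 0.0484), close to the threshold. Its tandem neighbour *wrt-7*, 4549 bases away, had 7 reads in all libraries together and was not tested.

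*wrt-10* had the highest mean TPM of the warthog genes over all libraries pooled, though in wild type its mean was 6.43 TPM and that of *wrt-5* 14.6, and its lead came from a mutant mean of 31.6 TPM. It was at 2.81, 4.72 and 10.8 CPM in wild type and 41.9, 20.9 and 9.46 in the mutant (1.75, SE 0.61, limma adjusted p = 0.0741). *wrt-1*, on the other strand with only 16 bases between the gene ends, was at 1.87, 6.01 and 8.63 CPM in wild type and 36.3, 22.8 and 6.93 in the mutant (1.73, SE 0.71, limma adjusted p = 0.111). In this pair wild-type library 1 was the lowest, mutant library 1 the highest, and mutant library 3 inside the wild-type range. Mutant libraries 1 and 2 were also above the wild-type range for *wrt-9* (1.02, SE 0.43) and *wrt-6* (0.85, SE 0.56), with mutant library 3 inside it for *wrt-9* and below it for *wrt-6*. *wrt-4* had 5.85, 10.4 and 13.3 CPM against 13.4, 5.96 and 1.59 (-0.70, SE 0.63), and *wrt-2* had 1.64, 2.51 and 6.77 against 9.70, 4.70 and 1.87 (0.43, SE 0.56). *wrt-5*, which is needed in embryonic development, stayed between 7.68 and 11.2 CPM in all libraries (-0.21, SE 0.26, limma adjusted p = 0.535). Scaled by library size, or taken as TPM, *wrt-5* and *grd-14* took the opposite sign and still did not pass.

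Of the single genes, *hog-1* (WBGene00001984, chromosome X, 5851953 to 5854263), named for its Hog part, was at 1.40, 2.28 and 2.75 CPM in wild type and 5.90, 6.32 and 3.28 in the mutant. The groups did not overlap, and *hog-1* rose by 0.96 (SE 0.30, limma adjusted p = 0.0425). It overlaps the tubulin acetyltransferase gene *atat-2*, which had a log2 fold change of 0.39 (SE 0.28). *qua-1* (WBGene00004264, chromosome II, 8198803 to 8204004), the molting gene, was at 13.3, 15.97 and 20.1 CPM in wild type and at 201, 85.0 and 29.5 CPM in the mutant. Every mutant library was above every wild-type library, from 57, 210 and 270 reads to 1433, 1411 and 315, and mutant library 3 was much closer to wild type than mutant library 1. *qua-1* had the largest log2 fold change of the family, 2.23 (SE 0.68), and did not pass in limma (adjusted p = 0.0615) or edgeR (adjusted p = 0.0510), while DESeq2 called it (adjusted p = 1.96e-05).

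**Figure D3:**
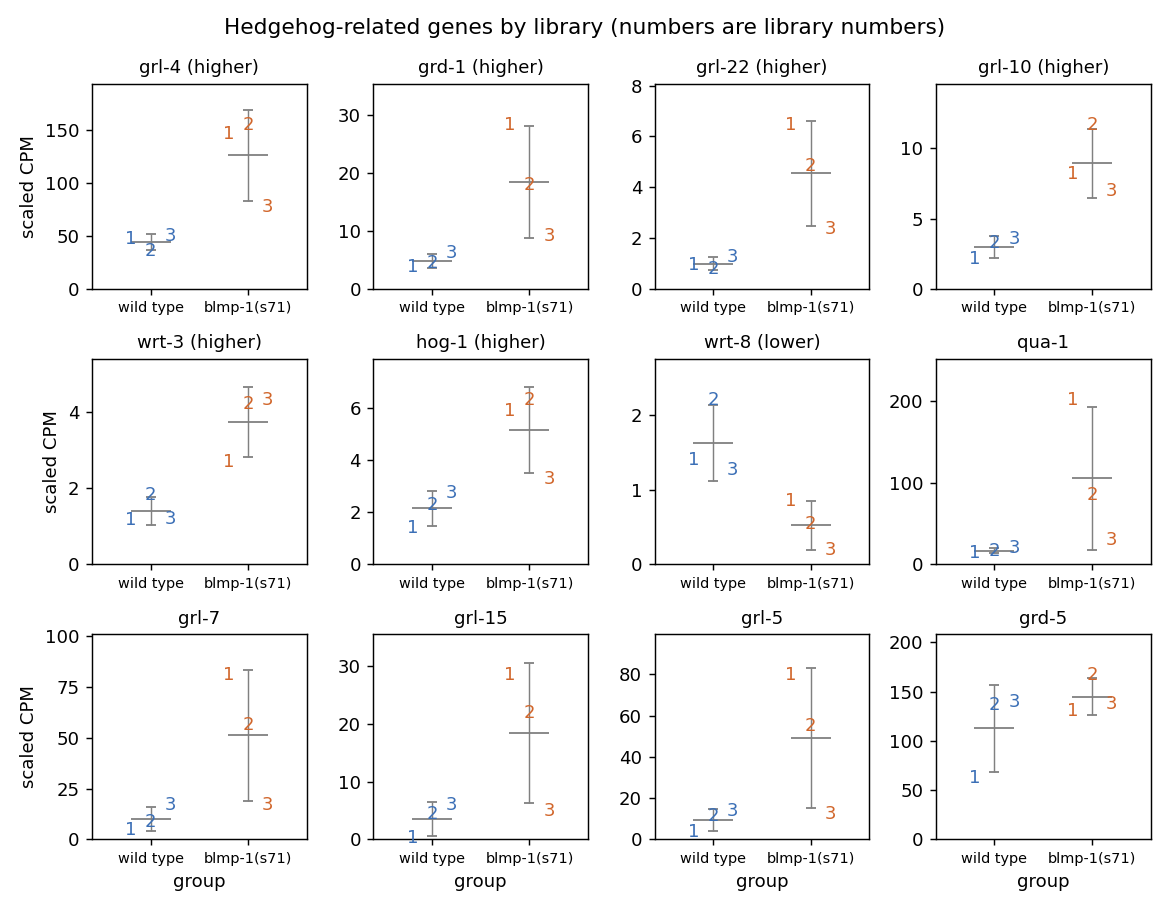
Scaled CPM (y axis, from 0) of 12 members in wild type and blmp-1(s71), each point drawn as its library number, with the mean and 1 SD over 3 libraries in grey. The 6 members called higher do not overlap between groups, *wrt-8* is lower in each mutant library, and in *qua-1*, *grl-7*, *grl-15* and *grl-5* the mutant libraries run from near wild type (3) to the highest value (1).

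The members moved together from library to library within each group. Wild-type library 1 held the lowest of the wild-type values in 25 of the 31 members, against 61.2% of all tested genes, and wild-type library 3 the highest in 26, against 38.4%. Mutant library 3 held the lowest of the mutant values in 26 of the 31, against 37.1% of all tested genes, and mutant library 1 the highest in 18, against 25.9%. Both mutant libraries 1 and 2 lay above the wild-type range for 18 members, or 58.1%, against 32.5% of all tested genes. For 10 of those 18, mutant library 3 did not, and 0 of these 10 were called by limma. Over all 31, mutant library 3 was above the wild-type range for 8, inside it for 15 and below it for 8. The shares above and below were 25.8% each, against 28.3% and 31.9% of all tested genes, and so no larger than the background. The 8 above the range were the 6 members called higher, *grl-7* and *qua-1*.

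**Figure D4:**
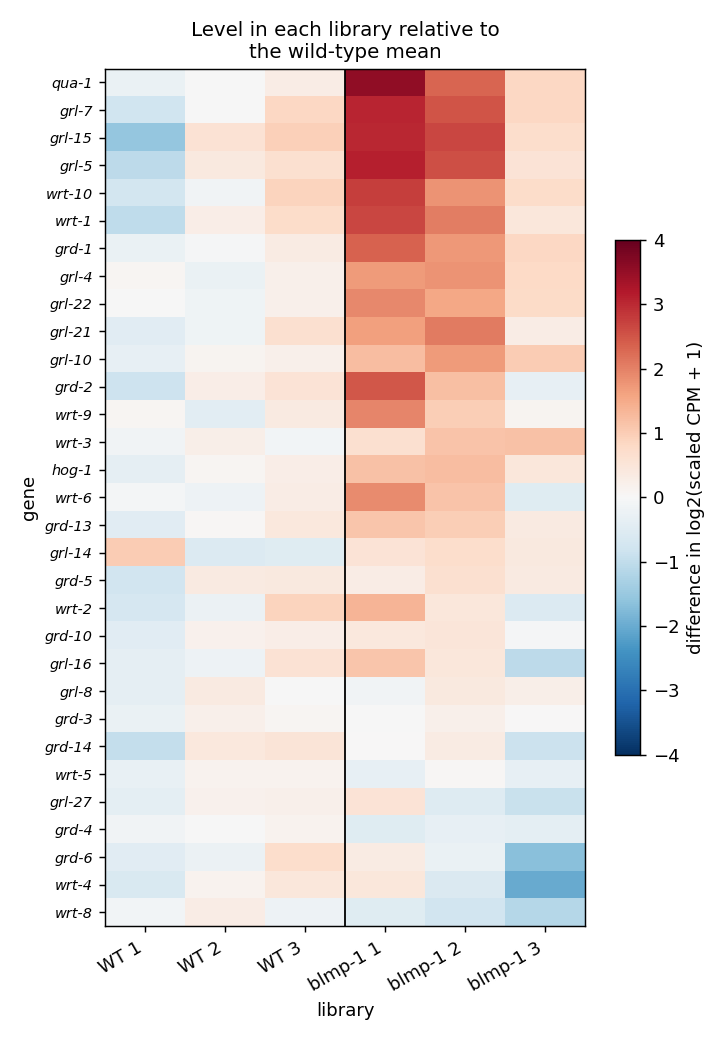
Level of each of the 31 tested members (rows) in each library (columns), as the difference in log2(scaled CPM + 1) from the wild-type mean, red above and blue below. Mutant libraries 1 and 2 are red over most of the upper rows, and mutant library 3 is paler there and the bluest of the mutant libraries in the lower rows.

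Leaving out 1 library changed the number of calls, in the family and over all genes. Without wild-type library 2, mutant library 1 or mutant library 2, limma called 0 members in either direction, with 7, 10 and 6 higher and 0, 4 and 1 lower at an unadjusted p under 0.05, and edgeR and DESeq2 were not run on these subsets. In the same fits only 1.09%, 0.247% and 0.218% of all tested genes were called higher and 0.204%, 0.08% and 0.0654% lower, so that counts near 0 were the background there. Without wild-type library 1 the members called were *grl-4*, *grl-10* and *grl-14*, and without wild-type library 3 they were *grl-4* and *grd-1*, where 1.68% and 1.45% of all tested genes were called higher and 0.262% and 0.174% lower. Without mutant library 3, 17 of the 31 were called higher and 0 lower, where 14.8% and 21.2% of all tested genes were called. These 17 were the 6 named above with *qua-1*, *grl-5*, *grl-7*, *grl-15*, *grl-21*, *grd-2*, *grd-13*, *wrt-1*, *wrt-6*, *wrt-9* and *wrt-10*. Leaving out any 1 of the 6 libraries ended the call of *wrt-8*. For the members called with all 6 libraries, the log2 fold change kept its sign in every such fit. It ran from 1.24 to 1.76 for *grl-4*, 1.11 to 1.45 for *grl-10* and 1.221 to 2.04 for *grd-1*. The ranges were 1.11 to 1.73 for *grl-22*, 0.81 to 1.20 for *hog-1*, 0.88 to 1.10 for *wrt-3* and -0.96 to -0.62 for *wrt-8*. Members not called moved by unlike amounts, with 0.006 to 0.18 for *grd-3*, -0.35 to 0.79 for *grl-16* and 1.51 to 2.93 for *qua-1*.

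Markers of some other cell types and stages, but not of all, differed between the groups too. Of 11 body wall muscle genes limma called 0, and of 11 pharynx and 11 intestine genes 1 each, higher. Of 25 oocyte and eggshell genes 18 were called lower and 0 higher, and their summed level was 9675 to 15230 CPM in wild type and 4186, 2508 and 8461 CPM in mutant libraries 1, 2 and 3. Of 22 germline and meiosis genes 12 were lower, with sums of 3659 to 4790 CPM in wild type and 2337, 1698 and 3131 in the mutant. None of these markers was at 0 in all libraries. With any 1 library but mutant library 3 left out, limma called 0 genes of both lists, with 18 to 24 oocyte and 12 to 18 germline genes lower at an unadjusted p under 0.05. With edgeR, 9 of the 25 and 12 of the 22 were lower, with the TPM 5 and 2, and with DESeq2 25 and 13. Of 17 tested neuronal genes 4 were higher (470 to 509 CPM summed, against 630 to 780). Of 12 epidermal genes 4 were higher and 1 lower. Their mutant sums (1372 to 2988 CPM) lay inside the wild-type range (1009 to 3280). Of 25 tested sperm genes 10 were higher and 1 lower (305 to 389 CPM summed, against 418 to 581). With any 1 library but mutant library 3 left out, limma called 0 of the neuronal, 0 or 1 of the epidermal and 1 or 2 of the sperm genes higher, with at least 4, 3 and 8 at an unadjusted p under 0.05. All these counts stand against the background of 8.84% higher and 13.4% lower in the fit to all 6 libraries. In the oocyte, germline and hedgehog-related lists alike, mutant library 3 was the mutant library nearest to wild type. This was not particular to them. The mean difference from wild type in log2(scaled CPM + 1) was 0.73, 0.65 and 0.39 for neuronal genes in mutant libraries 1, 2 and 3. It was 0.73, 0.51 and 0.20 for epidermal and 0.59, 1.03 and 0.53 for sperm genes. In body wall muscle genes mutant library 2 was the nearest (0.73, -0.001 and -0.11). The part of cell makeup and of stage in the levels of the hedgehog-related genes was not tested.

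The 30 untested members add values but no comparison. *grd-12* had 1, 5 and 4 reads in wild type and 18, 29 and 8 in the mutant, and *grd-16* had 0, 2 and 0 reads against 6, 14 and 3. The pseudogene *grd-17* had 1, 2 and 1 reads against 3, 17 and 8. *grl-19* and *grl-29* had 0 reads in every library, which allows up to 0.181 to 0.702 CPM each after scaling, depending on the library, counting error only. *grl-28*, *grl-29*, *grl-30*, *grl-31* and the pseudogene *grl-32* form a row on chromosome V, each within 5 kb of the next, and held between 0 and 7 reads apiece over all libraries.

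On the receptor side, 11 of 24 tested Patched-related genes rose and 2 fell, with a median of 0.96, against the same background of 8.84% and 13.4%. These counts were 1 and 0 without mutant library 1 or mutant library 2, 2 and 0 without wild-type library 2 or 3, 4 and 0 without wild-type library 1, and 16 and 2 without mutant library 3 (in each at least 11 higher at an unadjusted p under 0.05). The shares of all genes called in those fits, given above, fell and rose with them. *ptr-22* (6.54 to 8.48 CPM in wild type, 20.5 to 39.2 in the mutant) rose by 1.85 (SE 0.27, limma adjusted p = 0.00722). *ptr-8*, *ptr-10* and *ptr-12* rose by 1.17, 1.34 and 1.02, *ptr-6* rose as well (9.36, 6.77 and 6.70 CPM against 20.7, 20.6 and 12.2), and *ptr-2* fell by 1.16. The Patched homologs differed in direction: *ptc-3*, which acts in the epidermis, was at 47.8 to 96.9 CPM in wild type and 91.6 to 193 in the mutant and rose by 1.02 (SE 0.32), while *ptc-1*, which acts in the germline, was at 520 to 834 CPM against 270 to 454 and fell by 0.80 (SE 0.26). Their limma adjusted p were 0.0457 and 0.0463, and the germline markers that fell with *ptc-1* were not tested for their part in it. Of 8 further tested homologs of the pathway, *ncr-2*, a sterol transporter of the NPC1 family, rose by 1.34 (SE 0.30, limma adjusted p = 0.0337) and 7 did not pass. Among those, *tra-1*, the GLI homolog that directs sex determination, had a log2 fold change of -0.13 (SE 0.32), and *che-14*, a Dispatched homolog of apical secretion, had 0.35 (SE 0.36). Of 24 molting and apical matrix genes 6 rose, among them *mlt-3* and *nekl-3*, by 1.28 and 1.03, and *let-653* (5.25 to 9.36 CPM against 15.7 to 21.8), with a median of 1.27. Without 1 of the libraries the count ran from 0 (wild-type library 3, mutant library 1 or mutant library 2 left out, with 13, 11 and 9 at an unadjusted p under 0.05) to 16 (mutant library 3 left out). Of 6 furrow collagens *dpy-2* rose by 1.86 (SE 0.52, limma adjusted p = 0.0445), with a median of 1.85. With any 1 library but mutant library 3 left out limma called 0 of the 6 (1 to 6 higher at an unadjusted p under 0.05), while DESeq2 on all libraries called 6.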

How the data were processed

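The authors deposited CPM and TPM for each gene of each library, per the file headers. The submitters' processing notes list DESeq2 1.22.0, featureCounts 1.6.3, HISAT2 2.1.0 and Trimmomatic 0.36 without saying what each did. Overlapping and near-identical genes have uncertain values, since the genome build, annotation and use of strand are not given. The table of the whole series held the same values and was not used. Symbols turned into dates by a spreadsheet, 11 in all, took the reference symbol of their ID.

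CPM, divided by TMM factors of 0.813 to 1.21, were transformed as log2(CPM + 1), which understates changes of low genes, and tested with limma 3.58.1 (R 4.3.3). Genes had to reach 1 CPM in 3 or more libraries. The model held the group and no other term, with a mean-variance trend and robust moderation. P-values were adjusted by Benjamini-Hochberg over 13756 genes at 0.05. The CPM were whole multiples of 1 read in each library (100% of nonzero values within 0.01 reads). The recovered reads went into edgeR 4.0.16 and DESeq2 1.42.0 as alternatives, which called 2823 and 3779 genes. Intervals from reads cover counting error only.

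The members and lists were chosen with earlier results of these data known. Members were named without a filter on their values, with every library given for those called, for the highest by TPM in each family and for the 4 largest differences not called. Of the other pathway lists, up to 6 called genes by adjusted p, *tra-1*, *ptc-1*, *ptc-3* and *che-14* were named, and of other lists up to 3. Marker lists of glia and excretory system (3 of 13 tested genes higher), body wall muscle (0 of 11 called by limma), pharynx (1 of 11 higher), intestine (1 of 11 higher), sperm (10 of 25 higher, 1 lower), early embryo (1 of 8 lower), yolk (0 of 6 called by limma) and adult cuticle (1 of 3 lower) were also counted. No sequence is printed, since the references used here hold none.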

Additional observations from a re-analysis of the deposited data

How the results depend on the processing

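The counts of 6 members higher and 1 lower were also found with edgeR and with a pseudocount of 0.5. Pseudocounts of 0.1 and 2 gave 6 higher and 0 lower, with 1 lower at an unadjusted p under 0.05 in each. Over all 13756 genes, pseudocounts of 0.1, 0.5 and 2 gave 1035, 1155 and 1255 called higher and 1687, 1785 and 1874 lower. DESeq2 called 15 higher and 0 lower (1 at an unadjusted p), and gave *wrt-8* no adjusted p. Of all 13756 genes it called 1614 higher and 2165 lower. Library size alone gave 10 and 0, the deposited TPM 10 and 0, and upper-quartile scaling 9 and 0. Without the filter on low values limma called 0 of 59 members, with 20 higher and 2 lower at an unadjusted p, among 22878 genes of which 115 were called. Without both replicate-1 libraries it called 0 and 0, with 8 and 3 at an unadjusted p, where 125 of all genes were called. With 1 library left out the count of members called higher ran from 0 to 17 and of members called lower was 0 in each fit. The cause of these shifts was not tested. The labels do not say whether same-numbered libraries were paired. Deviations of same-numbered libraries from their group means correlated at 0.36, 0.44 and -0.09 for numbers 1, 2 and 3. Those of differently numbered libraries correlated at -0.45 to 0.19. For numbers 1 and 2, but not 3, the same-numbered match was thus the closest. With the replicate block, limma called 7 higher and 1 lower and edgeR 6 and 1. At an unadjusted p under 0.05, 9 members were higher in limma and 8 in edgeR, against 14 in each without the block. Calls over all genes went from 3061 to 5877 in limma. Of the 13756 genes, limma then called 2372 higher and 3505 lower, and edgeR 2094 and 3418. Without the block these were 1216 and 1845 in limma and 1167 and 1656 in edgeR. The members called higher thus stood out less from all genes with the block than without it. With this block, limma and edgeR called 24 of 25 oocyte and 21 of 22 germline genes lower and 0 of 6 furrow collagens, also 0 at an unadjusted p. Over all alternatives, 74 of 125 values of the 7 called members kept their call and 51 lost it, and 33 of 430 values of members not called became calls. Sign changes occurred in members called by neither fit: *grd-14*, *wrt-5*, *grl-16*, *wrt-2*, *grd-6* and *grl-27*. Depth limits the low members: *wrt-8* rests on 69 reads in all.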
